A study of Mus musculus with 8 samples.

Results

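The genes described here are 10 regulators of Toll-like receptor (TLR) and NF-kB signalling: the receptors Tlr2 and Tlr4, the adaptor Myd88, the NF-kB subunit genes Nfkb1, Nfkb2 and Relb, the inhibitors and feedback genes Nfkbia, Nfkbiz and Tnfaip3, and Birc3. A gene was taken from the table of array values by its symbol, using the brightest row where several rows shared it. Of the 10, 9 were found in this way among the 19505 genes with a symbol, and Nfkb1 was not analysed here. All 9 lay above background, the 75th percentile of the negative-control probes, on every array and passed the filter on dim genes, and none had values identical to another gene.

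RNA of colon epithelial cells was measured on 8 arrays, 1 per sample, in 4 groups of 2. The groups were SMS2 knockout mice given dextran sulfate sodium (DSS), untreated SMS2 knockout mice, wild-type (WT) mice given DSS, and untreated WT mice, all on the C57BL/6J background. DSS, a polymer that injures the lining of the colon, was given at 3.5% in the drinking water for 2 days. SMS2, encoded by Sgms2, makes sphingomyelin from ceramide. The labels do not state how much of the gene was deleted, in which cells, how old the mice were, or if each replicate came from a single mouse or several, so p-values measure only the spread between these samples. Values below are signals on the log2 scale, in which a difference of 1 is a 2-fold change, each difference is given with its standard error from limma, and a gene was called changed at an adjusted p under 0.05 over the 13003 genes tested.

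TLRs sense microbial molecules and signal through Myd88 to a kinase complex, which releases NF-kB dimers from their inhibitors so that they enter the nucleus and switch on inflammatory genes. Several of the genes switched on, among them Nfkbia and Tnfaip3, encode brakes on the same pathway. In the colon, epithelial cells face a dense bacterial community, and this signalling is known both for driving inflammation and for maintaining the barrier.

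Some features of the arrays bear on all that follows. Sgms2 read 7.35 and 6.47 in knockout arrays with DSS and 7.30 and 7.33 in untreated knockout arrays, against 11.27 and 10.90 in WT arrays with DSS and 10.79 and 10.76 in untreated WT arrays, so each genotype label was borne out. Transcripts of the Y-linked genes Eif2s3y, Uty and Kdm5d lay between 7.50 and 11.44 in the 4 DSS arrays and between 2.81 and 5.10 in the 4 untreated arrays, where background was 6.00 to 6.24. The labels do not state the sex of the mice, and DSS cannot be told apart from this difference. Epithelial markers averaged 15.90 to 15.99 in knockout arrays with DSS, 15.95 to 16.04 in untreated knockout arrays, 15.71 to 15.98 in WT arrays with DSS and 16.08 to 16.12 in untreated WT arrays, with Muc2, the main colonic mucin, and Lgals4, a galectin, the brightest. Fibroblast and matrix genes averaged 10.82 to 11.62, 9.33 to 9.66, 10.76 to 11.32 and 7.95 to 8.24 in those groups in that order, led by Dcn and Sparc. The first WT array with DSS stood apart with a mean of 11.52 for exocrine pancreas genes, against 5.58 to 7.14 on the other arrays. Amy2a5, a pancreatic amylase, read 15.17 there and at most 9.61 elsewhere, whereas Cela1, the other of the list's 2 highest by mean, read 15.83 there and 12.13 to 15.39 elsewhere. It and the first knockout array with DSS, which had the highest mean of these genes among the other arrays, were therefore also left out together as an alternative.

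Tlr2 was the 1 gene of the 9 that changed in any comparison. Tlr2 recognises bacterial lipopeptides together with Tlr1 or Tlr6. Its row (TC0300002236.mm.2) read 10.21 and 10.01 in knockout arrays with DSS, 11.34 and 11.59 in untreated knockout arrays, 10.82 and 11.12 in WT arrays with DSS, and 11.52 and 11.75 in untreated WT arrays. All 4 DSS arrays lay below all 4 untreated arrays, as they did for 5.67% of all genes, and the 2 knockout arrays with DSS were the lowest of all. In the knockout Tlr2 fell by 1.36 ± 0.24 with DSS, a 2.56-fold lower signal (95% interval -1.87 to -0.84, limma adjusted p = 0.0239). It was the only 1 of the 9 genes called in this comparison, in which 0.931% of all genes tested were called in either direction and 0.392% were called lower. In WT the difference with DSS was -0.66 ± 0.24 (adjusted p = 0.182), which did not pass although the arrays did not overlap. Averaged over both genotypes Tlr2 fell by 1.01 ± 0.17 with DSS, a 2.01-fold lower signal (adjusted p = 0.00415), in a comparison that called 5.52% of all genes and 2.05% as lower. The test of whether the DSS change differed between the genotypes gave -0.69 ± 0.33 (adjusted p = 0.931), so a larger fall in the knockout was not shown.

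The Tlr2 call in the knockout rested on few arrays. It was lost when the first knockout array with DSS was left out (-1.46, adjusted p = 0.0674), when either untreated knockout array was left out (adjusted p = 0.113 and 0.289), with only the 4 knockout arrays in the fit (adjusted p = 0.0991) and with quantile normalization (adjusted p = 0.0526), while the call averaged over genotypes passed in all 18 alternatives tried. Beside this fall, the summed signal of the 14 macrophage and dendritic cell markers with a row, led by Lyz2 and Ly6c2, was higher with DSS on the log2 scale: 12.04 to 12.98 in knockout arrays with DSS, 10.46 to 10.73 in untreated knockout arrays, 11.64 to 12.09 in WT arrays with DSS and 9.49 to 9.65 in untreated WT arrays. Of these markers, Adgre1, Itgax, Fcgr1, Cd163 and Cx3cr1 lay under background on every array, and the part of these cells in the Tlr2 result was not tested. In such mixed RNA, fewer cells of a type and less RNA per cell cannot be told apart.

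The Tlr2 promoter is shown because Tlr2 is the gene that changed. The sequence is that of RefSeq on GRCm38.p6 at chr3:83841559-83841858, minus strand, from 250 bases before to 50 bases after the transcript's start, with matches to the NF-kB consensus in capitals.
Tlr2: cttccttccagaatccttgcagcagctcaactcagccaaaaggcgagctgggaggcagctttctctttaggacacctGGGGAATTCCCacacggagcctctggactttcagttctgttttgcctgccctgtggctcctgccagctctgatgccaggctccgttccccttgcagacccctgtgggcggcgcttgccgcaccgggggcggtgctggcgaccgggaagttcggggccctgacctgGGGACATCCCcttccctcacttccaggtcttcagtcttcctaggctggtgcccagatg
The first run of capitals holds 2 overlapping matches, at bases 78 to 87 and 79 to 88 of the window, and a further match spans the start itself at bases 243 to 252. The search used both strands, and of the 32851 mouse promoter windows of the same length, 8.46% held at least 1 match. Windows were found for 6 of the 9 genes, 4 of which held a match and 2 of which, Myd88 and Birc3, held none. Some genes had several windows, and 6 of the 9 windows held a match, with 1 Nfkb2 match lying in both of its overlapping windows. The consensus was GGGRNNYYCC, where R is A or G, Y is C or T and N is any base. A match describes the letters only and says nothing of binding.

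Tlr4, the receptor for bacterial lipopolysaccharide, read 9.81 and 10.17 in knockout arrays with DSS, 10.08 and 9.79 in untreated knockout arrays, 10.49 and 10.53 in WT arrays with DSS, and 10.26 and 9.86 in untreated WT arrays (TC0400000743.mm.2). The 2 WT arrays with DSS were the highest, and the other 6 overlapped. With DSS, knockout minus WT was -0.52 ± 0.25 (adjusted p = 0.503), and DSS minus untreated in WT was 0.45 ± 0.25 (adjusted p = 0.437). Neither passed, nor did Tlr2 in knockout against WT with DSS (-0.86 ± 0.24, adjusted p = 0.245), although the arrays of the compared groups did not overlap in any of the 3.

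Myd88, the adaptor shared by most TLRs and by the IL-1 receptor, had the narrowest range of the 9 genes. Its signal was 10.07 and 10.30 in knockout arrays with DSS, 10.19 and 10.36 in untreated knockout arrays, 10.14 and 10.18 in WT arrays with DSS, and 10.41 and 10.12 in untreated WT arrays (TC0900003241.mm.2). In each comparison of DSS with untreated in 1 genotype, or of knockout with WT in 1 treatment, the arrays overlapped. The 95% interval of knockout minus WT with DSS ran from -0.48 to 0.53 and that of DSS minus untreated averaged over genotypes from -0.46 to 0.26, so changes larger than these were outside the intervals and smaller ones could not be resolved.

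**Figure D1:**
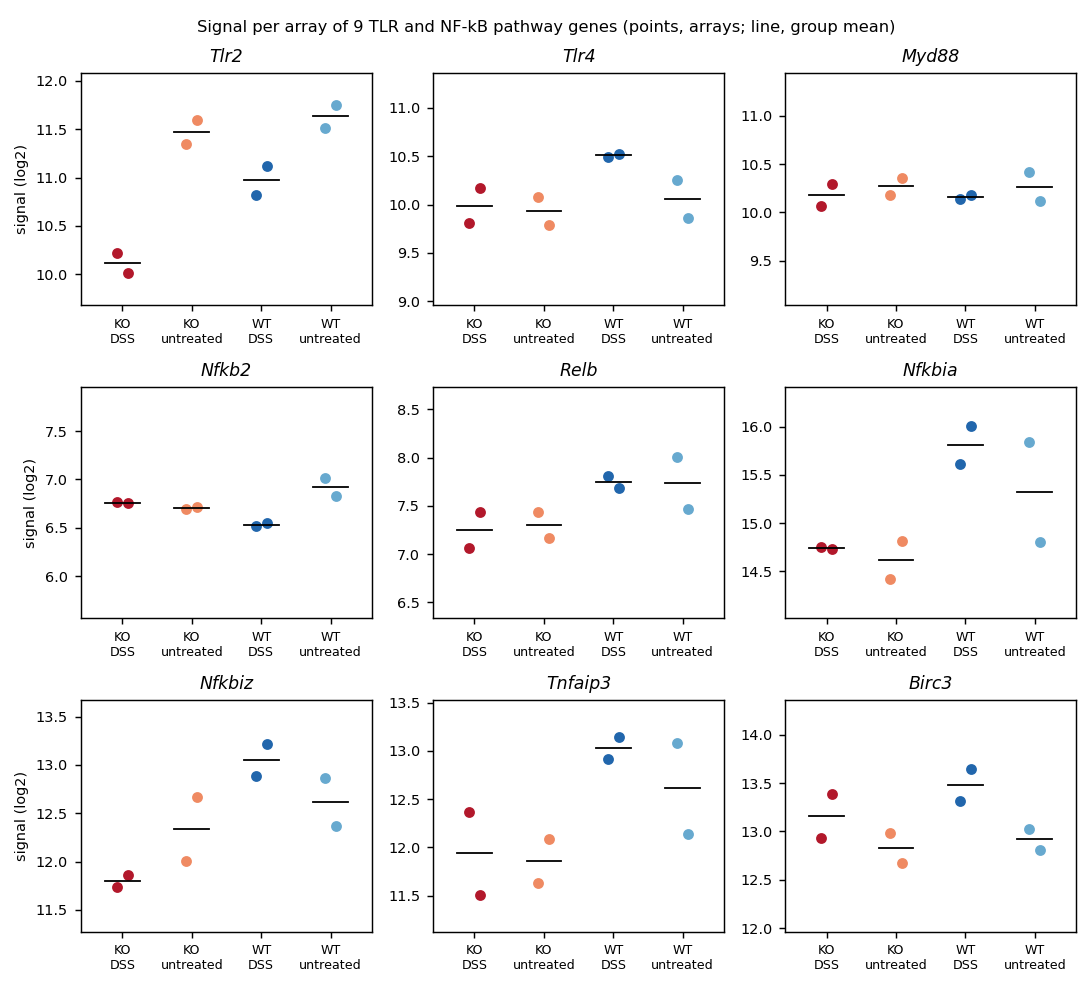
Signal on the log2 scale (vertical axes, same span in each panel) of the 9 TLR and NF-kB genes in the 4 groups, with a point for each array and a line at each group's mean. Tlr2 is lower in all 4 DSS arrays than in all 4 untreated arrays, and Nfkbia, Nfkbiz and Tnfaip3 are lower in the knockout arrays with DSS than in the WT arrays with DSS.

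The subunit genes Nfkb2 and Relb act together in the alternative NF-kB pathway, in which the product of Nfkb2 is cut to a subunit that pairs with the product of Relb. Nfkb2 was dim, only slightly above background, with 6.76 and 6.75 in knockout arrays with DSS, 6.70 and 6.72 in untreated knockout arrays, 6.51 and 6.55 in WT arrays with DSS, and 7.01 and 6.83 in untreated WT arrays (TC1900000689.mm.2). The WT arrays with DSS were the lowest and the untreated WT arrays the highest. DSS minus untreated was 0.05 ± 0.22 in the knockout (adjusted p = 0.979) and -0.39 ± 0.22 in WT (adjusted p = 0.445). The difference between those changes, 0.44 ± 0.31, did not pass (adjusted p = 0.986).

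Relb read 7.06 and 7.44 in knockout arrays with DSS, 7.44 and 7.17 in untreated knockout arrays, 7.81 and 7.68 in WT arrays with DSS, and 8.01 and 7.47 in untreated WT arrays (TC0700002491.mm.2). It was the only 1 of the 9 genes for which all 4 knockout arrays lay below all 4 WT arrays, as did 2.91% of all genes. Averaged over treatments, knockout minus WT was -0.46 ± 0.18, and it did not pass (adjusted p = 0.373). DSS minus untreated was near 0 in both genotypes, with 95% intervals of -0.63 to 0.52 in the knockout and -0.56 to 0.58 in WT.

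Nfkbia encodes the inhibitor that holds NF-kB in the cytoplasm and is itself switched on by NF-kB. It read 14.75 and 14.73 in knockout arrays with DSS, 14.42 and 14.82 in untreated knockout arrays, 15.61 and 16.01 in WT arrays with DSS, and 15.84 and 14.80 in untreated WT arrays (TC1200001768.mm.2). Both WT arrays with DSS lay above every knockout array, and the untreated WT arrays lay far apart. With DSS, knockout minus WT was -1.07 ± 0.33, a 2.09-fold lower signal with an unadjusted p of 0.00745 from limma, and it did not pass (adjusted p = 0.303). Without DSS the difference was -0.70 ± 0.33 (adjusted p = 0.809), which became -0.18 without the first untreated WT array and -1.22 without the second, and averaged over treatments it was -0.88 ± 0.23 (adjusted p = 0.128).

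Tnfaip3 encodes A20, an enzyme that edits ubiquitin chains and shuts the pathway down. Its signal was 12.37 and 11.51 in knockout arrays with DSS, 11.64 and 12.09 in untreated knockout arrays, 12.92 and 13.14 in WT arrays with DSS, and 13.09 and 12.14 in untreated WT arrays (TC1000001813.mm.2). As with Nfkbia, the second untreated WT array was near the knockout arrays and the other 3 WT arrays were higher. With DSS, knockout minus WT was -1.09 ± 0.36, a 2.13-fold lower signal (unadjusted p = 0.0111, adjusted p = 0.336 from limma). Leaving out 1 array gave -1.52 to -0.66, the value nearest 0 without the second knockout array with DSS. Averaged over treatments it was -0.92 ± 0.25 (adjusted p = 0.151).

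Nfkbiz encodes a nuclear inhibitor protein that is induced by TLR and IL-1 signals and helps switch on a subset of NF-kB targets. It read 11.73 and 11.86 in knockout arrays with DSS, 12.00 and 12.67 in untreated knockout arrays, 12.88 and 13.22 in WT arrays with DSS, and 12.87 and 12.37 in untreated WT arrays (TC1600001742.mm.2). The knockout arrays with DSS were the lowest 2 and the WT arrays with DSS the highest 2. With DSS, knockout minus WT was -1.25 ± 0.29, a 2.38-fold lower signal and the largest of the 9 genes in this comparison, with an unadjusted p of 0.00103 and an adjusted p of 0.126 from limma. DSS minus untreated was -0.54 ± 0.29 in the knockout (adjusted p = 0.634) and 0.43 ± 0.29 in WT (adjusted p = 0.549), neither of which passed. The test of the difference between the genotypes gave -0.97 ± 0.40 (unadjusted p = 0.0345, adjusted p = 0.865).

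Promoters of Nfkbia, Tnfaip3 and Nfkb2 are shown because the signals of Nfkbia and Tnfaip3 varied together over the 8 arrays while that of Nfkb2 did not vary with them. They are RefSeq windows on GRCm38.p6, drawn and marked as for Tlr2, at chr12:55492598-55492897 (minus strand) for Nfkbia, chr10:19015361-19015660 (minus strand) for Tnfaip3 and chr19:46304487-46304786 (plus strand) for Nfkb2.
Nfkbia: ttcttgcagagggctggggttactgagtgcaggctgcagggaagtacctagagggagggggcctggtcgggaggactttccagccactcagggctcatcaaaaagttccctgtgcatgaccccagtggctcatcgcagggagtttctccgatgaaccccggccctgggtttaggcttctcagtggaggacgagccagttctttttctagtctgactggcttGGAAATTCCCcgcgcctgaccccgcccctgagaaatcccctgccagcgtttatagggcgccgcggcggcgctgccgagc
Tnfaip3: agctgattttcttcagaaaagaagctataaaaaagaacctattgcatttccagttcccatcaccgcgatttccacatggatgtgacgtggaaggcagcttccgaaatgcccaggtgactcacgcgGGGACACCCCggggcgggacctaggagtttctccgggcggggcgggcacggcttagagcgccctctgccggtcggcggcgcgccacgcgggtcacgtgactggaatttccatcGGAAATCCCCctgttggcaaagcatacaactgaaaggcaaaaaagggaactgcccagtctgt
Nfkb2: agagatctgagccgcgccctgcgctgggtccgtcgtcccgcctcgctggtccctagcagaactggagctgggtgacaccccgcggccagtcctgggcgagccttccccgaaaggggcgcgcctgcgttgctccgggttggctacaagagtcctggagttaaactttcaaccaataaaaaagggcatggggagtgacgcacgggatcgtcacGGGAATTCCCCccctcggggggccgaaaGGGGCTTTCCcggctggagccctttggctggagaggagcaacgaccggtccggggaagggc
Nfkbia held 1 match, at bases 222 to 231 of the window. Tnfaip3 and Nfkb2 have several windows in RefSeq, and the one listed first is shown. The other Tnfaip3 window held 0 matches, and the other 2 Nfkb2 windows, which overlap, held 2 and 1, with 1 match the same site in both. The Tnfaip3 window shown held 2, at bases 126 to 135 and 239 to 248. The Nfkb2 window shown held 3, of which those at bases 212 to 221 and 213 to 222 overlap and the other lies at bases 240 to 249. Pearson's r over the 8 arrays, given as a description of arrays that share their groups, was 0.93 between Nfkbia and Tnfaip3, 0.86 between Nfkbia and Nfkbiz and 0.80 between Nfkbiz and Tnfaip3, and -0.14 between Nfkb2 and Nfkbia and -0.11 between Nfkb2 and Tnfaip3.

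Birc3 encodes an inhibitor of apoptosis protein, a ubiquitin ligase that acts downstream of TNF receptors. It read 12.93 and 13.39 in knockout arrays with DSS, 12.99 and 12.68 in untreated knockout arrays, 13.32 and 13.65 in WT arrays with DSS, and 13.02 and 12.81 in untreated WT arrays (TC0900001722.mm.2). Both WT arrays with DSS were above both untreated WT arrays, whereas the knockout groups overlapped. DSS minus untreated was 0.32 ± 0.26 in the knockout (adjusted p = 0.784), 0.56 ± 0.26 in WT (adjusted p = 0.322) and 0.44 ± 0.18 averaged over genotypes (unadjusted p = 0.0316, adjusted p = 0.221), and none of these passed. With DSS, knockout minus WT was -0.33 ± 0.26 (adjusted p = 0.693), and the arrays overlapped.

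Across the 9 genes, 7 had a lower mean in the knockout than in WT after DSS, and none passed the test. In knockout against WT with DSS, limma called 0 of the 9, against 0.354% of all genes, and 4 had an unadjusted p under 0.05, all lower in the knockout (Tlr2, Nfkbia, Nfkbiz and Tnfaip3), against 10.2% of all genes in either direction. The knockout arrays lay below the WT arrays for 6 of the 9, against 18.8% of all genes, and above them for 1, Nfkb2, against 16.1%. The median difference of the 9 was -0.52, beside -0.02 over all genes tested. Smooth muscle markers, led by Acta2 and Actg2, differed between the genotypes too, and 10 of 10 had a higher mean in the knockout, both with DSS (median 1.07) and without (median 1.89). Their summed log2 signal was 16.72 to 18.63 in knockout arrays with DSS, 17.49 to 17.78 in untreated knockout arrays, 16.22 to 16.74 in WT arrays with DSS and 15.27 to 16.27 in untreated WT arrays. None of the 10 passed in limma, with 3 at an unadjusted p under 0.05 with DSS and 10 without. Other marker lists differed too. Without DSS, 11 of 11 fibroblast, 10 of 10 endothelial and 8 of 11 macrophage markers tested were higher in the knockout. Their medians were 1.52, 1.03 and 0.62 without DSS and 0.24, 0.28 and 0.43 with DSS. Of them limma called 3, 1 and 1 without DSS, against 0.392% of all genes, and none with DSS. Without DSS 10 of 12 epithelial and 4 of 6 T cell markers were lower. The part of all these cells in the differences of the 9 genes was not tested.

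In untreated mice the knockout and WT arrays overlapped for most of the 9 genes, although 8 of the 9 had a lower mean in the knockout. There limma called 0 of the 9, against 0.392% of all genes, and 0 had an unadjusted p under 0.05, against 6.32%. The knockout arrays lay below the WT arrays for 3 of the 9 (Nfkb2, Relb and Tnfaip3), against 20.6% of all genes, and the median difference was -0.21, beside -0.03 over all genes. Averaged over treatments, limma called 0 of the 9, against 0.677% of all genes, and 5 had an unadjusted p under 0.05, all lower in the knockout, against 11% of all genes in either direction. These were Tlr2, Relb, Nfkbia, Nfkbiz and Tnfaip3. The averaged comparison reuses the arrays of the comparisons with and without DSS, so it adds no support to either. Those comparisons use different arrays but share 1 estimate of the spread.

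With DSS 1 of the 9 genes changed, Tlr2, and DSS cannot be told apart from the difference in Y-linked transcripts. In the knockout 1 of the 9, Tlr2, had an unadjusted p under 0.05, against 9.52% of all genes. Its arrays with DSS lay below the untreated ones for Tlr2 and Nfkbiz, 2 of 9 against 22% of all genes, and above them for Nfkb2, 1 of 9 against 16.8%. In WT limma called 0 of the 9, against 4.04% of all genes, and 2 had an unadjusted p under 0.05, Birc3 higher and Tlr2 lower, against 15.4%. Its arrays with DSS lay above the untreated ones for Tlr4, Nfkbiz and Birc3, 3 of 9 against 20.3%, and below them for Tlr2 and Nfkb2, 2 of 9 against 24.1%. These shares are near those of all genes. In the test of whether the DSS change differed between the genotypes limma called 0 of the 9, against 0.0769% of all genes, and 1, Nfkbiz, had an unadjusted p under 0.05, against 5.45%.

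**Figure D2:**
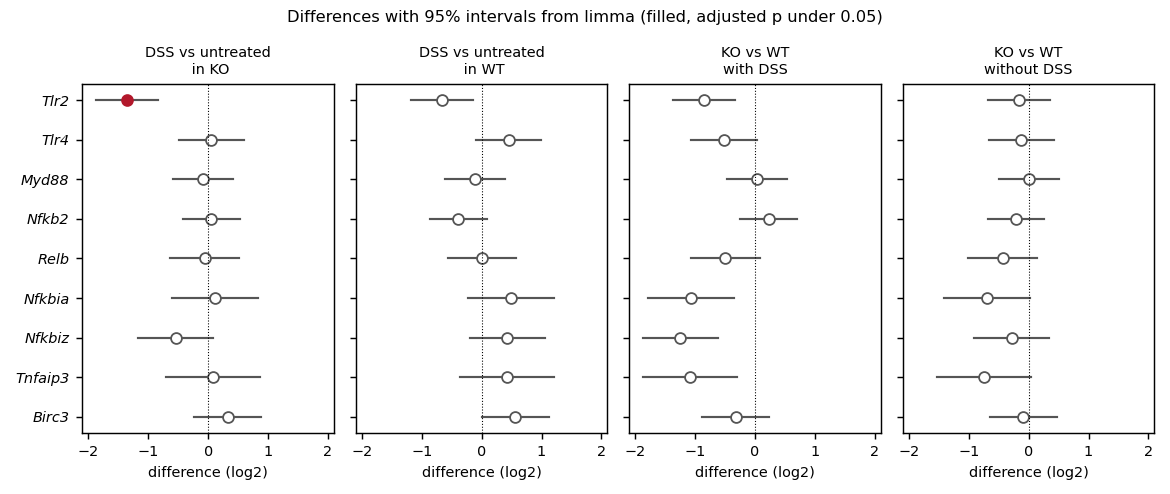
Differences on the log2 scale (horizontal axes) of the 9 genes with 95% intervals from limma in 4 comparisons, with a filled point where the adjusted p was under 0.05. Tlr2 with DSS in the knockout is the filled point, at -1.36, and 6 of the 9 points for knockout against WT with DSS lie between -1.25 and -0.50.

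The receptors and co-receptors around Tlr2 and Tlr4 were set beside them as a list of 15, all with a row and 11 of them tested. Tlr6, Tlr8, Tlr9, Tlr11 and Tlr12 lay under background on every array. The brightest were Ly96, the co-receptor that binds lipopolysaccharide with Tlr4, at 12.41 to 13.23 over the 8 arrays, and Tlr3, the receptor for double-stranded RNA, at 11.37 to 12.02, and neither passed in any comparison. With DSS in the knockout limma called 0 of the 11, against 0.931% of all genes, and 4 had an unadjusted p under 0.05, all higher, against 9.52%. With DSS in WT 2 of the 11 rose, against 4.04% of all genes called, and they passed averaged over genotypes too. Lbp, which carries lipopolysaccharide to Cd14, read 8.63 and 9.13 in knockout arrays with DSS, 7.38 and 7.68 in untreated knockout arrays, 8.25 and 8.10 in WT arrays with DSS, and 6.68 and 5.56 in untreated WT arrays, the last under background. Every DSS array was above every untreated array, with a difference of 2.05 ± 0.34 in WT (adjusted p = 0.00538) and 1.35 ± 0.34 in the knockout, which did not pass (adjusted p = 0.129). Ly86, the partner of the TLR-like receptor Cd180 on B cells and macrophages, was at least 2.92-fold higher with DSS in WT (adjusted p = 0.00505), where both untreated arrays were under background. The Lbp call in WT was lost without the second untreated WT array (adjusted p = 0.0517), and that of Ly86 without the first untreated WT array (adjusted p = 0.0678) or without the second WT array with DSS (adjusted p = 0.0532). Both moved with the macrophage and fibroblast markers given above, whose part was not tested.

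Among the adaptors and kinases between the receptors and the IKK complex, 15 of 22 were tested and 1 passed. That gene, Tifa, passed in knockout against WT with DSS, where 0.354% of all genes were called, and averaged over treatments, where 0.677% were. Tifa, an adaptor that links receptors to Traf6, read 9.64 and 9.60 in knockout arrays with DSS, 9.85 and 10.46 in untreated knockout arrays, 11.90 and 12.13 in WT arrays with DSS, and 11.40 and 11.00 in untreated WT arrays. All 4 knockout arrays lay below all 4 WT arrays. With DSS, knockout minus WT was -2.39 ± 0.27 (adjusted p = 0.00171), which passed in all 19 alternatives tried, and averaged over treatments it was -1.72 ± 0.19 (adjusted p = 0.00171). Without DSS the difference was -1.04 ± 0.27 (adjusted p = 0.18). Tifa lies on chromosome 3, and the part of its position relative to the targeted gene Sgms2 in these differences was not tested. The other 14 did not pass in any comparison, among them Tab2, a subunit of the kinase complex that activates IKK, at 10.07 to 10.40 over the 8 arrays. With DSS, 8 of the 15 had a lower and 7 a higher mean in the knockout, with a median difference of -0.13, beside -0.02 over all genes.

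The list of other NF-kB and IkB proteins, 7 of 8 tested, also held Nkrf and Nkap, which are neither subunits nor IkB proteins. It had 0 genes called by limma in any of the 7 comparisons, and between 0 and 3 had an unadjusted p under 0.05. With DSS all 7 had a lower mean in the knockout than in WT, 3 with an unadjusted p under 0.05, against 10.2% of all genes, and their median difference was -0.42, beside -0.02 over all genes. Without DSS 6 of the 7 had a lower mean in the knockout, with a median difference of -0.28, beside -0.03 over all genes. Rela, the main activating subunit, read 13.38 and 13.46 in knockout arrays with DSS, 13.53 and 13.68 in untreated knockout arrays, 13.77 and 13.90 in WT arrays with DSS, and 13.94 and 13.49 in untreated WT arrays. Its knockout arrays with DSS were the lowest 2, and the difference from WT with DSS was -0.42 ± 0.24 (adjusted p = 0.58). Nfkbib, a second cytoplasmic inhibitor, ranged from 11.63 to 12.77 over the 8 arrays.

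Of the 16 genes listed as negative regulators 14 were tested. The list also holds Rnf31 and Rbck1, which help build the linear ubiquitin chains that Otulin removes, so it is not made of brakes only. With DSS, 13 of the 14 had a lower mean in the knockout than in WT, with a median difference of -0.44, beside -0.02 over all genes. Of the 14, 2 had an unadjusted p under 0.05, a share near the 10.2% of all genes, and limma called 0. Otulin, which removes linear ubiquitin chains, read 6.31 and 6.41 in knockout arrays with DSS, 7.16 and 7.21 in untreated knockout arrays, 6.83 and 6.76 in WT arrays with DSS, and 7.27 and 7.13 in untreated WT arrays. All 4 DSS arrays lay below all 4 untreated ones, and it fell by 0.61 ± 0.15 with DSS averaged over genotypes (adjusted p = 0.0401). Otulin was the only 1 of the 14 called in that comparison, against 5.52% of all genes. That call held in 7 of 18 alternatives, and it was lost when any 1 array but the second knockout array with DSS was left out (adjusted p from 0.0641 to 0.172 in those fits). The brightest of the list were Tax1bp1, which helps A20 act, at 15.18 to 16.26, and Peli1, a ubiquitin ligase, at 11.29 to 12.02, and neither passed in any comparison.

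Textbook NF-kB target genes outside the 10 rose with DSS in part. Of 24 on the list 18 were tested, and Il6, Il1a, Cxcl5, Icam1, Sele, Nos2 and Csf2 lay under background on every array. In the knockout 2 of the 18 rose and 0 fell with DSS, against 0.931% of all genes called. They were Csf1, the macrophage growth factor (1.86 ± 0.37, adjusted p = 0.0446), and Lcn2, an iron-sequestering antibacterial protein that was at least 1.37-fold higher (adjusted p = 0.0334). In WT 5 rose and 0 fell, against 4.04% of all genes called. Csf1 was higher by 2.51 ± 0.37 (adjusted p = 0.00265) and Ptgs2, the inducible cyclooxygenase, by 2.55 ± 0.44 (adjusted p = 0.00633), with 1 of the 2 untreated WT arrays above background. The chemokine Ccl5 was at least 2.75-fold higher (adjusted p = 0.000192), the cytokine Il1b at least 3.67-fold (adjusted p = 0.0207) and the adhesion molecule Vcam1 at least 1.44-fold (adjusted p = 0.0343). Vcam1 is the fifth of these by p and was named after its values were seen. With background at the 95th percentile instead, Ccl5, Il1b and Vcam1 in WT and Lcn2 in the knockout lay under it with and without DSS. No lower bound holds for them at that level. Several calls rested on few arrays: in the knockout Csf1 passed in 10 of 19 alternatives and Lcn2 in 11 of 18, and in WT Ptgs2 lost its call without the first untreated array (adjusted p = 0.0836). Il1b and Vcam1 lost theirs without either untreated WT array (adjusted p from 0.109 to 0.243) or without the second WT array with DSS (adjusted p = 0.153 and 0.214). The median difference of the 18 was 0.19 in the knockout and 0.74 in WT, beside -0.04 and -0.05 over all genes. Averaged over genotypes 7 of the 18 rose and 0 fell, against 5.52% of all genes called. Those of smallest p were Csf1 (2.19 ± 0.26, adjusted p = 0.000484), Ccl5 (adjusted p = 0.000876), Lcn2 (adjusted p = 0.00257) and Il1b (adjusted p = 0.00373). No size is given for the averaged change of Ccl5, Lcn2 and Il1b, since at least 1 of the groups in it lay under background on both arrays.

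Ccl5 was the only 1 of the 18 tested targets called between the genotypes. Of all genes, 0.354% were called in knockout against WT with DSS and 0.0769% in the interaction. Ccl5 read 5.93 and 5.68 in knockout arrays with DSS, 5.54 and 5.72 in untreated knockout arrays, 7.42 and 7.77 in WT arrays with DSS, and 5.31 and 5.13 in untreated WT arrays. Only the WT arrays with DSS were above background. With DSS it was at least 2.76-fold lower in the knockout (adjusted p = 0.00761). The test of the interaction was just past the threshold (adjusted p = 0.0489), and it passed in 7 of 17 alternatives. With 3 of the 4 groups under background, no size of the interaction can be read. The T cell markers followed Ccl5 in part: the summed signal of the list ran from 9.03 to 9.24 in knockout arrays with DSS, 8.75 to 8.86 in untreated knockout arrays, 9.58 to 10.39 in WT arrays with DSS and 8.54 to 8.95 in untreated WT arrays, with Cd3d, Cd3g, Cd8a and Cd8b1 under background on every array. Within the list, Gzma, a granzyme of cytotoxic cells, read 6.08 and 5.98 in knockout arrays with DSS, 4.87 and 5.49 in untreated knockout arrays, 7.50 and 8.67 in WT arrays with DSS, and 4.84 and 5.79 in untreated WT arrays, and Gzmb was likewise highest in the WT arrays with DSS. These 2 were named after their values were seen, and Gzma was above background only in the WT arrays with DSS. Cd2, near background, went the other way in WT. It averaged 5.89 in WT with DSS against 6.12 in untreated WT, and 5.89 in the knockout with DSS against 5.90 in the untreated knockout. Of Cd4 and Cd3e, of highest mean among the tested markers, Cd4 did not share the pattern of Gzma evenly. Cd4 averaged 7.23 in the knockout with DSS against 6.41 in the untreated knockout, and 7.66 in WT with DSS against 6.71 in untreated WT. Cd3e averaged 6.47 against 6.49 in the knockout and 6.95 against 6.00 in WT. Its 2 WT arrays with DSS lay apart, at 6.44 and 7.47. The part of these cells in the Ccl5 result was not tested. The brightest targets, Irf1, a transcription factor, and Sod2, a mitochondrial superoxide dismutase, ranged from 12.94 to 13.96 and from 13.09 to 13.71, and neither passed.

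The list of IL-1 and TNF receptors that feed the same pathway also held Tradd and Il1rn, which are not receptors. Of its 11 genes 9 were tested, no receptor was called, and 1 gene changed, Il1rn. It passed with DSS in WT, where 4.04% of all genes were called, and averaged over genotypes, where 5.52% were. Il1rn, the natural antagonist of the IL-1 receptor, read 12.15 and 12.99 in knockout arrays with DSS, 12.25 and 11.75 in untreated knockout arrays, 13.30 and 13.54 in WT arrays with DSS, and 11.69 and 11.29 in untreated WT arrays. The WT arrays with DSS were the highest, and the knockout groups overlapped. It was higher with DSS by 1.93 ± 0.31 in WT (adjusted p = 0.00452) and by 1.25 ± 0.22 averaged over genotypes (adjusted p = 0.00614), and in the knockout the difference was 0.57 ± 0.31 (adjusted p = 0.651). The interaction gave -1.37 ± 0.44 (adjusted p = 0.6), and the WT call was lost without the second untreated WT array (adjusted p = 0.0578). Ltbr, the lymphotoxin receptor that feeds the alternative pathway through Nfkb2 and Relb, ranged from 11.79 to 12.47 and did not pass in any comparison.

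**Figure D3:**
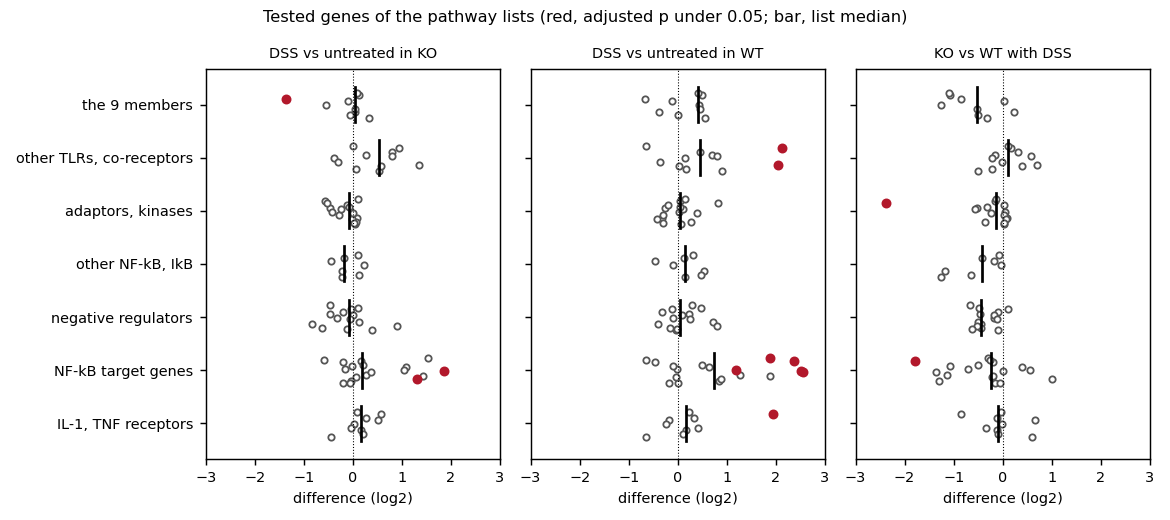
Differences on the log2 scale (horizontal axes) of every tested gene of the 7 pathway lists in 3 comparisons, with a point per gene, filled red where the adjusted p was under 0.05, and a bar at the list's median. The 9 genes have medians of 0.05 with DSS in the knockout, 0.42 with DSS in WT and -0.52 for knockout against WT with DSS.

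**Figure D4:**
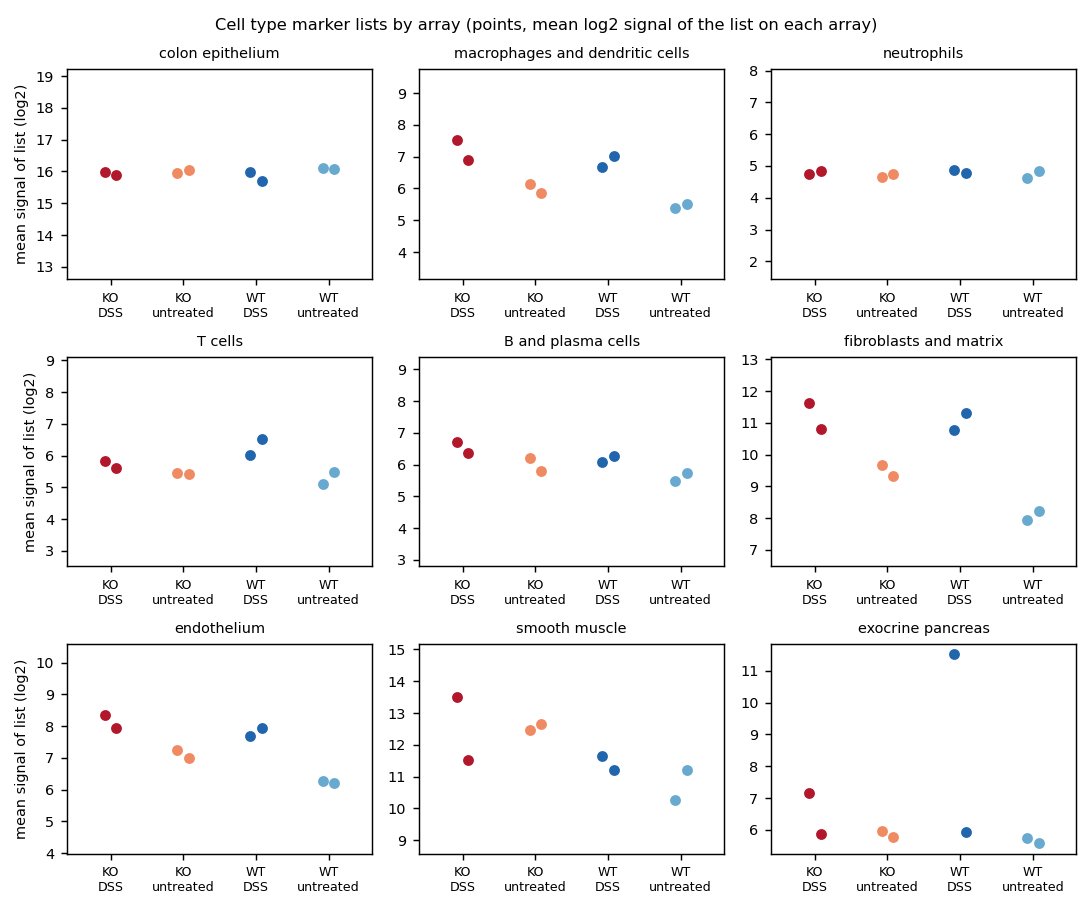
Mean log2 signal (vertical axes) of 9 lists of cell type markers, with a point for each of the 8 arrays in the 4 groups. Macrophage, T cell, B and plasma cell, fibroblast and endothelial lists are higher in the DSS arrays than in the untreated arrays of the same genotype. Of the 6 B and plasma cell genes with a row, 5 lay under background on every array. The exocrine pancreas list is highest, at 11.52, on the first WT array with DSS.

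The genes most like each of the 9 over the 8 arrays were listed by Pearson's r, as a description of arrays that share groups and of the highest values among all genes tested. Tlr2 was closest to Igsf9, Hmces and Lmo7 (r = 0.97, 0.97 and 0.96), and Tlr4 to Peli1, Pter and Spop (0.99, 0.98 and 0.98). Nfkbia was closest to Smim15, Krt36 and Fmo4 (0.98, 0.97 and 0.94), and Tnfaip3 to Smim15, Sertad2 and Nfkbia (0.95, 0.93 and 0.93), so these 2 feedback genes shared their closest gene. Nfkbiz was closest to Capn8, Nrg4 and Ccdc7b (0.96 each), Relb to Scnn1b, Cisd2 and Mob3b (0.99, 0.98 and 0.96), and Birc3 to Mgat4a, Sowahc and Il10 (0.99, 0.98 and 0.97). Myd88 was closest to Rabl6, Pgm3 and Ppp1r8 (0.97, 0.95 and 0.93), and Nfkb2 to Azgp1, Smim7 and Mocs2 (0.97, 0.95 and 0.95). Among the 9 themselves, Tlr4 went with Birc3 (0.87), Relb (0.79) and Nfkbia (0.77), whereas Tlr2 and Tlr4 had an r of -0.12.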

How the data were processed

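RNA was labelled with an Affymetrix kit for whole transcripts and hybridised to 8 arrays, per the labels' protocols. The deposited log2 values were made with Affymetrix Expression Console, per the submitters' processing notes, and the sources used here do not state its background correction or normalization. They were used as deposited. Of 28846 rows, 6640 control rows were left out and 19572 had 1 symbol, from the platform annotation, giving 19505 genes with the highest-mean row each. The dimmest 33.3% by mean over all arrays (below 5.15) were dropped, which kept 13003 genes for testing.

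The 4 groups were modelled together in limma 3.58.1 (R 4.3.3), with 4 residual degrees of freedom. Tests were two-sided, p-values were adjusted by Benjamini-Hochberg over the 13003 genes, and 0.05 was the threshold. Background on each array was set from its 5222 negative-control rows, at their 75th percentile. Where only 1 of the groups compared rose above it on any array, the fold is a lower bound ("at least"), from the bright group's mean against the mean, per array, of the higher of background and the dim probe's own signal. With background at the 95th percentile no bound could be given for Ccl5, Il1b, Vcam1, Ly86 or Lcn2, since both groups compared lay under it. The number of arrays limits the precision.

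The 10 genes and all lists were chosen with earlier results of these data known. Besides the 10, the genes named are, per list and comparison, up to 4 past the threshold of smallest p, the 2 brightest tested genes of each pathway or marker list, and the 3 genes of highest Pearson r with each of the 9, with Sgms2 and the Y-linked genes as checks. Of the listed genes, 17 were not analysed here, among them Nfkb1, Irak1, Irak4 and Chuk. Same-numbered replicates did not deviate together (r from -0.25 to 0.28 over 6 pairs of groups), and the labels give no pairing. Alternatives changed the filter, the rows used, the scaling, the moderation of variances, the weights of arrays, which arrays entered, the threshold and the background percentile, or added a replicate block.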

Additional observations from a re-analysis of the deposited data

Results flagged for a closer look

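Flagged here are 4 genes, 1 by the test of whether the DSS change differed between the genotypes and 3 only by where their arrays lay. The share of all genes with such opposite positions was not counted. For Ccl5 the test of the difference passed: the fitted DSS change in the knockout minus that in WT was -2.20 (adjusted p = 0.0489 from limma). Its size cannot be read as such, since Ccl5 lay under background on all arrays but those of WT with DSS. For the other 3, the DSS arrays lay wholly on one side of the untreated arrays in the knockout and wholly on the other side in WT, and the test of the difference did not pass. That difference was 0.44 for Nfkb2 (adjusted p = 0.986), -0.97 for Nfkbiz (adjusted p = 0.865) and -1.35 for Tifa (adjusted p = 0.43). Nfkb2 had DSS arrays above the untreated ones in the knockout, by a mean of only 0.05 ± 0.22, and below them in WT. Nfkbiz and Tifa were both below in the knockout and above in WT.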

How the results depend on the processing

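The count of the 9 genes called with DSS in the knockout was 1, Tlr2, and it was 0 with quantile normalization and 0 with only the arrays compared. Leaving out 1 array gave 0 to 1, and the causes were not tested beyond the smaller number of arrays. Tlr2 itself stayed between -1.48 and -1.23, and with the first DSS array of both genotypes left out it was -1.46 (adjusted p = 0.0294). With the second DSS arrays left out, chosen after seeing the data, it was -1.25 (adjusted p = 0.0222). The count for DSS averaged over genotypes was 1 and those of the other 5 comparisons 0 in every alternative. The replicate block left these counts as they were, with adjusted p = 0.0353 for Tlr2 with DSS in the knockout and 0.00645 averaged. Signs turned for Nfkbia and Tnfaip3 in DSS minus untreated in WT, both without the second untreated WT array. Leaving out 1 array gave -0.032 to 1.01 for Nfkbia (0.49 with all arrays) and -0.054 to 0.89 for Tnfaip3 (0.42). Other differences of the 9 genes larger than their standard error kept their sign. No scaling moved the median of all genes by over 0.1. Over all genes, the calls ranged from 14 to 685 with DSS in the knockout (121 with all arrays), 215 to 988 in WT (525), 396 to 1146 averaged (718), 21 to 445 for knockout against WT with DSS (46), 3 to 252 without (51), 28 to 622 averaged (88) and 5 to 85 for the interaction (10).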
